A study of Homo sapiens with 6 samples.

Results

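The 9 Krüppel-like factor (KLF) genes KLF2, KLF4, KLF5, KLF6, KLF7, KLF9, KLF10, KLF11 and KLF13 were chosen by name from a gene count table of 36601 rows. All 9 were found there. The rule gives only their names, but the genes were proposed with earlier results of these data known. Its 6 libraries were made from U2OS, an osteosarcoma line of human origin. All of the cells carried a doxycycline-inducible TDP-43-mNLS-Clover, a TDP-43 whose nuclear localization signal is mutated, fused to the fluorescent protein Clover. TDP-43, encoded by TARDBP, is an RNA-binding protein that is mostly nuclear and that controls the splicing of many transcripts. The aggregates group was given 50 nM fibril seeds made from the TDP-43 low-complexity domain (LCD) with lipofectamine-3000. The diffuse group was mock-treated, with storage buffer in place of seeds. Sorting by image after 48 h kept aggregate-bearing cells of seeded dishes and cells of mock dishes whose Clover was diffuse. Each group had 3 libraries of polyA-selected RNA from separate transfections of 1 cell line. Seeding and sort gate differ together between the groups, so their effects cannot be told apart. A common batch is recorded for all 6.

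KLF proteins are transcription factors that bind GC-rich and CACCC sequences through zinc fingers at their carboxyl end. Their amino-terminal parts differ and recruit either co-activators such as the acetyltransferases EP300 and CREBBP, or co-repressors such as SIN3A and CtBP. Many KLF genes are switched on quickly by serum, stress, growth factors or hormones, their transcripts are short-lived, and they take part in cell cycle arrest, differentiation and metabolism, also in bone-forming cells.

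The stretches of sequence shown here are the exon whose use differed between the groups, and 2 promoter stretches, each with a match to the site of a transcription factor. Exon 3 of KLF6 (GRCh38, chr10:3780106-3780229, minus strand, 124 bases) lies in the part of the gene that encodes the zinc fingers, and capitals mark TGTG or GTGT. TDP-43 is known to bind RNA rich in UG repeats. The exon holds 11 TG dinucleotides, a count that was not compared with other exons. Binding of TDP-43 to this RNA was not measured.
KLF6 exon 3: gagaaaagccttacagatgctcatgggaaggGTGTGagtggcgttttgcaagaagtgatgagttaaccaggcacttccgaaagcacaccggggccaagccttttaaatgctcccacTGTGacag
The KLF2 stretch (chr19:16324661-16324760, plus strand) lies 165 to 66 bases before the RefSeq start, and capitals mark a match to TAAATTTA, the core of a MEF2 site. MEF2 factors are known to switch on KLF2 downstream of the kinase MAPK7.
KLF2 promoter: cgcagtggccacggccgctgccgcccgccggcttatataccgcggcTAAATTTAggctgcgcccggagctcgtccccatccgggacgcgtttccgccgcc
The KLF11 stretch (chr2:10043999-10044098, plus strand) lies 222 to 123 bases before a RefSeq start of KLF11. Capitals mark a match to the cAMP response element TGACGTCA, a site bound by factors of the CREB and ATF families. Another RefSeq start of the gene lies upstream of the stretch, with a window that ends at 10043828. The stretch also falls within an annotated KLF11 intron (10043759 to 10046149).
KLF11 promoter: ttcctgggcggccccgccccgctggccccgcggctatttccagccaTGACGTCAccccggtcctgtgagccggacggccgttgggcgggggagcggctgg

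Promoter sequences were taken from RefSeq (GRCh38.p14), as windows of 250 bases before a start. For the KLF genes, windows on chromosome 8, where KLF10 lies, were left out, which was not done for the comparison windows. The other 8 of the 9 genes had 13 windows. Motifs were searched on both strands and compared with 34788 such windows. TAAATTTA was found in 0.543% of all windows and, among the KLF genes, in KLF2; these letters were set after other spellings of the site had been searched. The cAMP response element was found in 1.64% of all windows and, among the KLF genes, in KLF11. CACGTG was found in 6.31% of all windows and in windows of KLF4, KLF6, KLF7 and KLF11. The AP-1 site TGANTCA was found in 6.59% of all windows and in 0 of the 13 windows, which hold none of KLF10. The GC box GGGCGG was found in 8 of the 13 windows and in 42.6% of all windows. The CACCC box CCACCC was found in 2 of the 13 windows and in 31.2% of all windows. CCAAT was found in 6 of the 13 and in 32% of all windows, and TATAAA in 1 of the 13 and in 10.8%. The GC content of the 13 windows ran from 32.4 to 80%, against a median of 58% over all windows. These matches describe letters in the windows, and binding was not measured.

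The libraries held 41528336 to 46863013 gene counts in the aggregates group and 40279084 to 43091428 in the diffuse group, so that 1 count was worth 0.0212 to 0.0251 CPM (here, counts per 1e6 of the library total after TMM scaling). TARDBP, whose reads in this table do not separate the endogenous gene from the transgene, had 2534, 2590 and 2617 CPM in aggregates libraries, against 7368, 7267 and 7685 CPM in diffuse libraries. The osteosarcoma and mesenchymal markers VIM, SPARC, COL1A1, COL1A2, RUNX2 and ALPL were all detected, with a summed level of 3475 to 3779 CPM in aggregates and 5719 to 5947 CPM in diffuse libraries. The difference between these sums lies mostly in COL1A1 and VIM: of the 6 genes, 3 were lower in aggregates (COL1A1, VIM and COL1A2), 2 were higher (ALPL at a log2 fold change of 1.25 and RUNX2 at 0.56) and SPARC did not pass the test. The 4 blood cell markers summed to 0.212 to 0.362 CPM in aggregates and 0.352 to 0.501 CPM in diffuse libraries, and none passed the filter on low counts. Endothelial markers summed to 2.7 to 4.01 CPM in aggregates and 5.74 to 6.69 CPM in diffuse libraries. Epithelial markers summed to 9.52 to 10.5 CPM in aggregates and 10.3 to 10.6 CPM in diffuse libraries. Neuronal markers summed to 167 to 172 CPM in aggregates and 211 to 232 CPM in diffuse libraries, mostly from TUBB3. Of these 4 genes, 3 were lower in aggregates, whereas RBFOX3 was higher, with 20.1 ± 1.49 CPM in aggregates and 2.79 ± 0.159 CPM in diffuse cells (SD, n = 3 each), a log2 fold change of 2.85. The part of these markers in the results was not tested. In bulk libraries, fewer cells of a type and less RNA per cell cannot be told apart.

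All 9 KLF genes were lower in cells with aggregates than in cells with diffuse Clover, with log2 fold changes between -1.26 and -0.58 and a median of -0.79. In no case did the 3 aggregates libraries overlap the 3 diffuse libraries. The summed level of the 9 genes was 741 to 764 CPM in aggregates libraries, against 1343 to 1381 CPM in diffuse libraries. Each difference passed edgeR's quasi-likelihood test with Benjamini-Hochberg adjustment over all genes tested, at a threshold of 0.05. The change in these cells was wide: by the same test, 75.4% of the 17839 genes tested changed, 37.6% were lower in aggregates, and the median log2 fold change of all genes was 0.01. The groups did not overlap for 76.2% of all genes, and 38% of all genes were lower in aggregates with no overlap. Against a fold of 1.2 rather than against no change, the test called all 9 KLF genes lower, and 26.5% of all genes. A log2 fold change below -1 was found for KLF6, KLF2, KLF4 and, at the very edge with a fold of 0.49994, KLF11, and for 8.11% of all genes. KLF4 passed the filter on low counts through the diffuse libraries alone, so it had to differ, whereas the other 8 passed it in every library of both groups.

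KLF6, KLF2, KLF4, KLF5 and KLF7 belong to the KLF proteins that bind acetyltransferases and mostly activate their targets. KLF6 (GENCODE 29 on hg38, chromosome 10, 3775996 to 3785281, minus strand), a growth-suppressing factor that is induced early after injury or serum, had 169, 157 and 167 CPM in aggregates libraries, against 394, 387 and 397 CPM in diffuse libraries. All 3 aggregates libraries lay far below the lowest diffuse library. The means were 164 ± 6.57 CPM in aggregates and 392 ± 5.16 CPM in diffuse cells (SD, n = 3 each), a log2 fold change of -1.26 (SE 0.04, edgeR adjusted p = 1.03e-51). This stood at percentile 4.82 of the log2 fold changes of all genes tested.

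KLF2 (chromosome 19, 16324817 to 16327874, plus strand), known for its control of endothelial quiescence and lymphocyte trafficking, had 5.56, 4.86 and 5.24 CPM in aggregates libraries, against 12.0, 11.3 and 13 CPM in diffuse libraries. The highest aggregates library was still below the lowest diffuse one. The log2 fold change was -1.21 (SE 0.08, edgeR adjusted p = 4.82e-27). The KLF2 promoter stretch with the MEF2 match is the one printed above. The endothelial markers had lower sums in aggregates. Of their 3 tested genes, TEK was lower at a log2 fold change of -1.36, whereas VWF at -0.01 and PECAM1 at -0.2 did not pass the test. Any link of these markers to KLF2 was not tested.

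KLF4 (chromosome 9, 107484852 to 107490482, minus strand), one of the factors used to reprogram cells to pluripotency, was near the limit of detection. It had 6, 7 and 4 counts in aggregates libraries, against 13, 11 and 12 counts in diffuse libraries, or 0.128 ± 0.0278 CPM in aggregates and 0.290 ± 0.0327 CPM in diffuse cells (SD, n = 3 each). The log2 fold change was -1.15 (SE 0.41, edgeR adjusted p = 0.00938). DESeq2 gave -1.17 with an adjusted p of 0.1, so the call for KLF4 depended on the tool; over the alternatives that tested it the adjusted p ran from 0.00641 to 0.1.

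KLF5 (chromosome 13, 73054976 to 73077542, plus strand), which promotes proliferation in epithelial and smooth muscle cells, had 58.2, 60.4 and 62.2 CPM in aggregates libraries, against 102, 105 and 106 CPM in diffuse libraries. The groups were well apart, with a log2 fold change of -0.79 (SE 0.04, edgeR adjusted p = 6.84e-35). KLF7 (chromosome 2, 207074137 to 207167267, minus strand), known from neuronal development in mice, had 98.0, 100 and 105 CPM in aggregates libraries, against 148, 155 and 150 CPM in diffuse libraries. Its log2 fold change of -0.58 (SE 0.04, edgeR adjusted p = 6e-27) was among the smallest of the 9. KLF7-IT1, a transcript inside a KLF7 intron on the same strand, had 16, 30 and 19 counts in aggregates and 40, 52 and 41 counts in diffuse libraries. Its exons overlap none of KLF7.

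KLF11, KLF10, KLF13 and KLF9 belong to the KLF proteins that bind SIN3A and mostly repress their targets. KLF11 (chromosome 2, 10042849 to 10054836, plus strand), a factor of the transforming growth factor beta response, had 75.8, 77.0 and 74.7 CPM in aggregates libraries, against 152, 149 and 154 CPM in diffuse libraries. The replicates were tight in both groups, and the ratio of the means was 0.5. The log2 fold change was -1 (SE 0.04, edgeR adjusted p = 6.55e-44). An antisense gene that overlaps KLF11, AC104794.4, had 0 counts in all 6 libraries.

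KLF10 (chromosome 8, 102648779 to 102655902, minus strand), first known as a gene induced early by transforming growth factor beta in bone cells, had 138, 129 and 135 CPM in aggregates libraries, against 205, 218 and 231 CPM in diffuse libraries. Its diffuse libraries were more spread than those of the other well-expressed members, yet all lay above the aggregates libraries. The log2 fold change was -0.70 (SE 0.04, edgeR adjusted p = 5.32e-30).

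KLF13 (chromosome 15, 31326855 to 31435665, plus strand), a regulator of the chemokine CCL5 in T cells, had 182, 177 and 180 CPM in aggregates libraries, against 279, 263 and 277 CPM in diffuse libraries. The groups were apart, and the log2 fold change was -0.61 (SE 0.04, edgeR adjusted p = 7.67e-29). KLF9 (chromosome 9, 70384597 to 70414624, minus strand), a gene induced by glucocorticoid and thyroid hormone, had 36.6, 36.3 and 36.0 CPM in aggregates libraries, against 54.1, 55.3 and 53.9 CPM in diffuse libraries. Its log2 fold change was -0.58 (SE 0.04, edgeR adjusted p = 3.11e-23). Over the 8 members other than KLF4, the SD was 0.787 to 7.26% of the group mean.

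**Figure D1:**
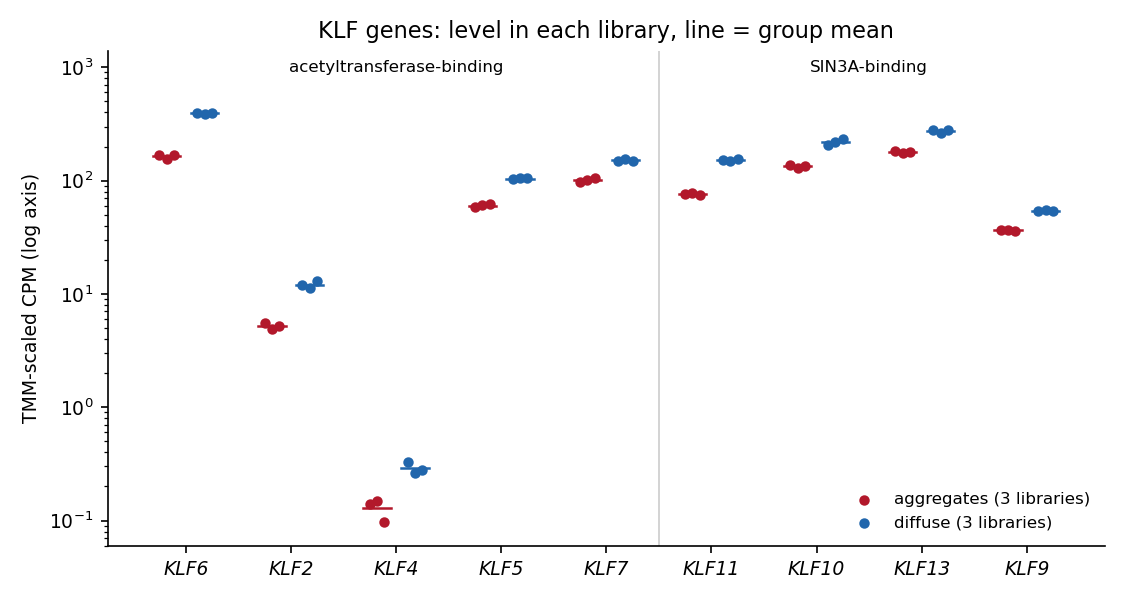
TMM-scaled CPM (log axis) of the 9 KLF genes in each of 3 aggregates (red) and 3 diffuse (blue) libraries; lines are group means and the vertical line parts the acetyltransferase-binding from the SIN3A-binding members. For each gene the aggregates libraries sit below the diffuse ones, with KLF6 at a mean of 164 CPM in aggregates against 392 CPM in diffuse libraries.

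The fold changes were not equal, so the order of the members differed between the groups. Divided by the length of each gene's exons, KLF10 was the highest member in aggregates cells at 33.4 ± 1.08 CPM per kilobase, and KLF6 followed at 26.7 ± 1.07. In diffuse cells KLF6 was the highest at 63.9 ± 0.841 CPM per kilobase, and KLF10 followed at 54.5 ± 3.19 (SD, n = 3 each). Below them the order in aggregates cells was KLF13, KLF11, KLF5, KLF7, KLF9, KLF2 and KLF4, and in diffuse cells KLF11 came before KLF13, with the rest in the same order. KLF13 had 19.1 ± 0.290 CPM per kilobase in aggregates and 29 ± 0.938 in diffuse cells, and KLF11 had 16.5 ± 0.250 in aggregates and 33.1 ± 0.575 in diffuse cells. The ranges of neighbours in the order overlapped in neither group. With the length of the longest transcript in place of all exons, the ranges of KLF10 and KLF6 overlapped in aggregates cells, and KLF13, at 40 CPM per kilobase, came before KLF11, at 37.6, in diffuse cells.

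For the pairs that changed places by exon length, ratios within a library do not depend on scaling between libraries. They restate the levels above, and the pairs were picked because they changed places, so they are no separate support. KLF6 over KLF10, per kilobase, was 0.8, 0.791 and 0.807 in aggregates libraries, against 1.25, 1.16 and 1.12 in diffuse libraries. KLF11 over KLF13 was 0.854, 0.893 and 0.851 in aggregates libraries, against 1.12, 1.16 and 1.14 in diffuse libraries. Neither ratio overlapped between the groups, although the side of 1 on which it falls rests on the lengths used. KLF6 made up 20.3 ± 0.468% of the length-scaled sum of the 9 genes in aggregates cells and 26.6 ± 0.398% in diffuse cells, and KLF10 made up 25.4 ± 0.424% in aggregates and 22.7 ± 0.941% in diffuse cells (SD, n = 3 each).

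**Figure D2:**
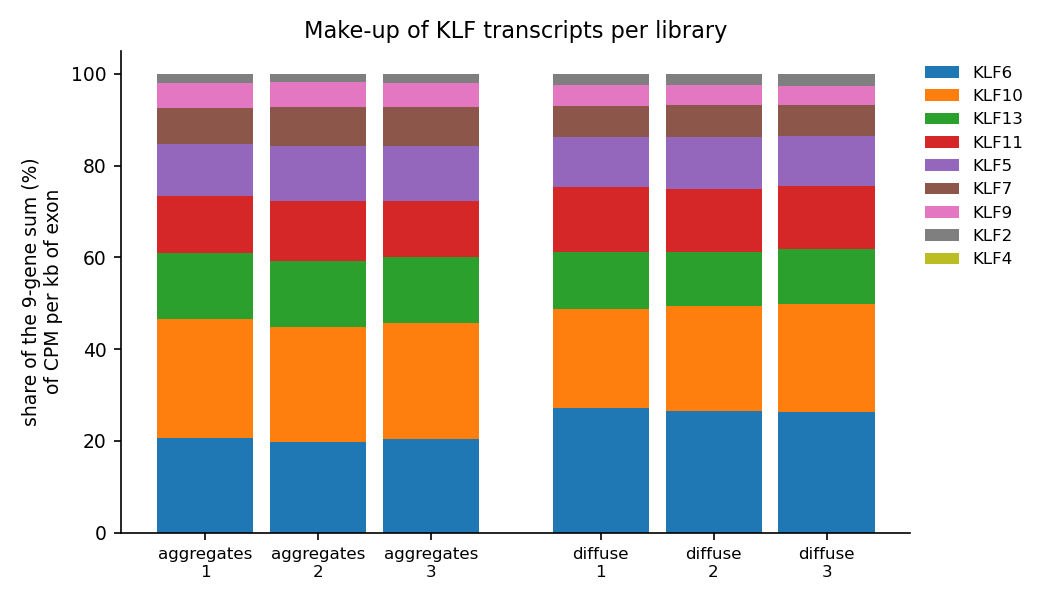
Share of each of the 9 KLF genes in their summed CPM per kilobase of exon (%, stacked to 100), for 3 aggregates libraries on the left and 3 diffuse libraries on the right. KLF6 takes 20.3% on average in aggregates libraries and 26.6% in diffuse libraries, and KLF4 is too small to be seen.

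The other KLF genes did not all move one way. The genes described above were chosen with earlier results of these data known, so a contrast with them is not independent of that choice. Of 9, 7 could be tested, of which 3 were higher and 4 lower in aggregates, with a median log2 fold change of -0.25. KLF1 and KLF18 did not pass the filter on low counts. The 3 tested genes whose proteins bind CtBP were lower, as were 37.6% of all genes tested, and 1 of them, KLF3, was not called against a fold of 1.2. Among these, KLF12, a repressor of the AP-2 alpha gene, had 37.7 ± 2.18 CPM in aggregates and 107 ± 3.55 CPM in diffuse cells, with a log2 fold change of -1.51 (SE 0.04). KLF8 had 1.21 ± 0.0416 CPM in aggregates and 2.40 ± 0.0897 CPM in diffuse cells, with -0.99, and KLF3 had 68.1 ± 2.03 CPM in aggregates and 80.9 ± 1.34 CPM in diffuse cells, with -0.25 (SD, n = 3 each). The test of KLF3 against that fold gave an edgeR adjusted p of 0.527, and its adjusted p over the alternatives ran from 8.42e-10 to that value.

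The remaining SIN3A-binding genes, KLF14 and KLF16, were higher in aggregates, unlike the 4 SIN3A-binding genes described above. KLF16 had 37.9 ± 0.725 CPM in aggregates and 31.2 ± 1.99 CPM in diffuse cells, with a log2 fold change of 0.28 (edgeR adjusted p = 0.264 against a fold of 1.2, and from 7.94e-09 over the alternatives). KLF14 had 1.10 ± 0.226 CPM in aggregates and 0.624 ± 0.1 CPM in diffuse cells, with 0.81. KLF15, a regulator of metabolism in muscle and liver, had 1.09 ± 0.271 CPM in aggregates and 0.338 ± 0.0512 CPM in diffuse cells, with 1.70. KLF17, a germ cell and early embryo factor, had 0.653 ± 0.179 CPM in aggregates and 4.36 ± 0.0634 CPM in diffuse cells, with -2.75 (SD, n = 3 each), the largest difference in either direction among the tested KLF and SP genes. KLF12 and KLF5 lie on the same arm of chromosome 13, at 73686089 to 73995056 and at 73054976 to 73077542.

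The SP genes, whose proteins share the zinc fingers of the KLF family, were mixed as well. Of 9, 6 could be tested, of which 1 was higher and 3 lower, with a median of -0.15. Of all genes tested, 37.8% were higher and 37.6% lower in aggregates. SP1, a widely expressed activator, had 144 ± 4.77 CPM in aggregates and 182 ± 1.78 CPM in diffuse cells, with -0.34, and SP3 had 135 ± 5.18 CPM in aggregates and 192 ± 2.08 CPM in diffuse cells, with -0.51 (SD, n = 3 each). SP6 had a log2 fold change of -0.59 and SP8 of 0.49. SP2 at 0.07 and SP4 at 0.03 did not pass the test, and SP5, SP7 and SP9 did not pass the filter on low counts.

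**Figure D3:**
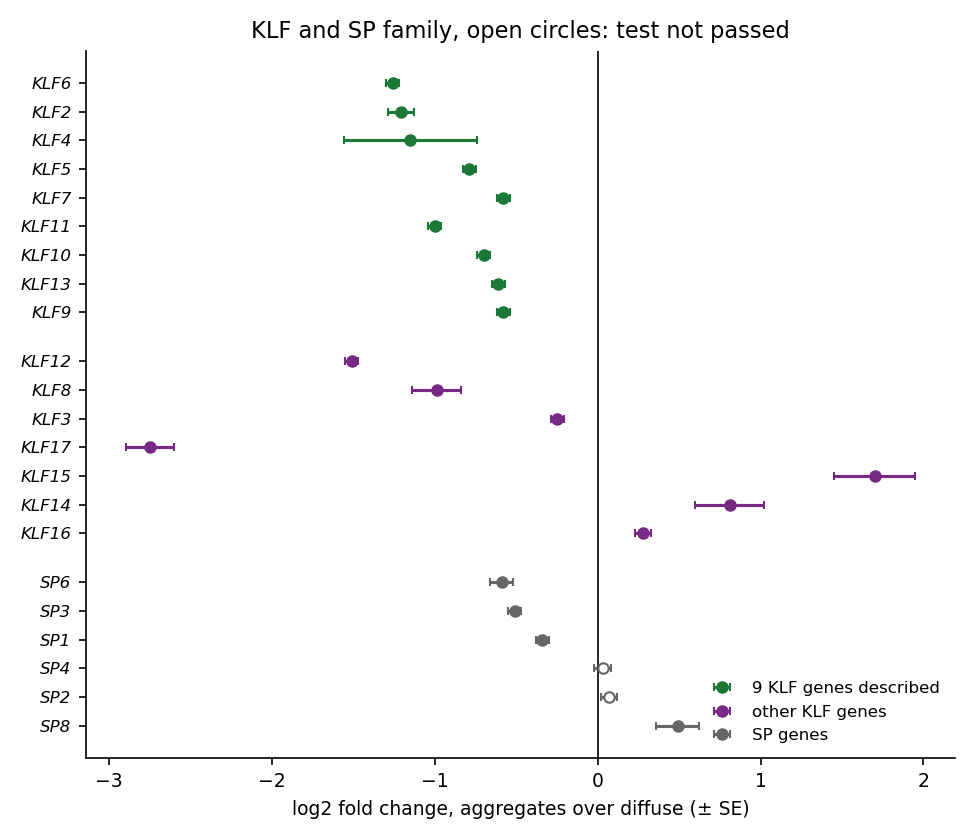
Log2 fold change of aggregates over diffuse with its standard error for the 22 KLF and SP genes that passed the filter on low counts; green, the 9 KLF genes described; purple, other KLF genes; grey, SP genes; open circles did not pass the test. The 9, chosen with earlier results of these data known, lie between -1.26 and -0.58. The other KLF genes run from -2.75 (KLF17) to 1.70 (KLF15), both with low counts. Those averaging 5 CPM or more run from -1.51 (KLF12) to 0.28 (KLF16).

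Genes known to act on KLF genes, on KLF proteins or beside them were read from lists. The counts of each list here and below stand beside 37.8% of all genes tested higher and 37.6% lower in aggregates. No list was tested as a set. Of 15 upstream regulators, all tested, 5 were higher and 7 lower in aggregates, with a median log2 fold change of -0.06. The glucocorticoid receptor NR3C1, which induces KLF9, had 76.9 ± 2.05 CPM in aggregates and 169 ± 4.21 CPM in diffuse cells, with -1.13. SMAD3, which carries the transforming growth factor beta signal, had 96.5 ± 1.73 CPM in aggregates and 191 ± 1.73 CPM in diffuse cells, with -0.99 (SD, n = 3 each). MEF2A had 60.7 ± 1.47 CPM in aggregates and 104 ± 6.71 CPM in diffuse cells, with -0.78, and MAPK7, the kinase upstream of MEF2, had 29.4 ± 1.11 CPM in aggregates and 40.3 ± 0.678 CPM in diffuse cells, with -0.45. The regulators named by size thus all fell. The 5 that rose did so by less, up to 0.33 for ELK1, and MAP2K5, MEF2C and SRF did not pass the test.

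Of 11 cofactors that KLF proteins bind, 4 were higher and 5 lower, with a median of -0.04. The co-repressor CTBP2 had 97.6 ± 1.49 CPM in aggregates and 167 ± 3.60 CPM in diffuse cells, with -0.77, and the acetyltransferase KAT2A had 60.7 ± 4.59 CPM in aggregates and 38.1 ± 2.36 CPM in diffuse cells, with 0.68 (SD, n = 3 each). CREBBP at -0.31 and SIN3A at -0.30 were lower by less. Of 7 ubiquitin ligases of KLF proteins, 1 was higher and 5 lower, with a median of -0.28, and the members named by size were BTRC at -0.75, SIAH1 at -0.67, SMURF1 at -0.35 and FBXO32 at 0.35.

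Of 20 genes reported as KLF targets in other systems, 18 could be tested, of which 6 were higher and 11 lower, with a median of -0.40. The cell cycle inhibitor CDKN1A, which KLF6 and KLF4 are known to activate, had 417 ± 19.2 CPM in aggregates and 199 ± 8.58 CPM in diffuse cells, with 1.06. LAMA3, a laminin chain of epithelial basement membranes, had 0.845 ± 0.336 CPM in aggregates and 10.1 ± 0.901 CPM in diffuse cells, with -3.59 (SD, n = 3 each). TXNIP, which binds thioredoxin, had 20 ± 1.45 CPM in aggregates and 45.6 ± 1.53 CPM in diffuse cells, with -1.18, and BIRC5, which blocks apoptosis, had 249 ± 3.62 CPM in aggregates and 495 ± 26.5 CPM in diffuse cells, with -0.99. LAMA3 reached the average of 5 CPM needed for naming through the diffuse group alone. NOS3, just below that average, had 7.59 ± 0.166 CPM in aggregates and 1.62 ± 0.226 CPM in diffuse cells, with 2.23. These genes thus lay on both sides of no change.

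Of 13 other immediate early genes, 12 could be tested, of which 2 were higher and 10 lower, with a median of -1.08. The 2 higher ones were MYC, with 373 CPM in aggregates and 204 CPM in diffuse cells (0.87), and FOSL1 at 0.78. The zinc finger factor EGR2 had 5.79 ± 0.195 CPM in aggregates and 30.6 ± 1.71 CPM in diffuse cells, with a log2 fold change of -2.40. IER2 had 39.2 ± 2.66 CPM in aggregates and 136 ± 3.56 CPM in diffuse cells, with -1.80, the nuclear receptor NR4A1 had 31.0 ± 2.17 CPM in aggregates and 93.9 ± 7.85 CPM in diffuse cells, with -1.59, and FOS had 136 ± 8.84 CPM in aggregates and 366 ± 3.59 CPM in diffuse cells, with -1.43 (SD, n = 3 each).

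By the distance between library-wise log2 levels centred on their mean, the genes most like KLF6, the member with the largest fall, were ATF2 at 0.0377, LRATD2 at 0.0449 and FRMD3 at 0.0611, out of 11597 genes averaging 5 CPM or more. ATF2 had 45.1 CPM in aggregates and 109 CPM in diffuse cells, with a log2 fold change of -1.28. In all, 196 genes lay within a distance of 0.2 of KLF6, measured over 6 libraries. No member rose, so no nearest genes were sought for a rise.

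The second deposited table counts spliced reads per intron, grouped by LeafCutter into clusters of introns that share a splice site. Clusters were found for 6 of the 9 genes, 9 clusters in all, and none was placed in KLF2, KLF4 or KLF13. Use of introns within a cluster was tested with edgeR's diffSpliceDGE and Benjamini-Hochberg adjustment over 35898 clusters, of which 5.02% changed. Of the 9 clusters, 1 changed, at exon 3 of KLF6 (adjusted p = 2.87e-09). Summed over the clusters, KLF6 had 39.9, 38.2 and 40.4 spliced reads per 1e6 intron counts in aggregates libraries, against 108, 114 and 108 in diffuse libraries, from the same RNA as the gene counts.

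The intron that skips exon 3 of KLF6 (chromosome 10, 3779591 to 3781640) is annotated in GENCODE 29. It took 9.55, 9.15 and 13% of the reads of its cluster in aggregates libraries, against 3.48, 3.87 and 3.38% in diffuse libraries. The exact Clopper-Pearson 95% intervals, which cover counting error only, ran from 7.30 to 15.6% over the aggregates libraries and from 2.63 to 4.77% over the diffuse libraries. The means were 10.6 ± 2.12% in aggregates and 3.58 ± 0.259% in diffuse cells (SD, n = 3 each), and aggregates library 3 was the highest.

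Counted as reads across the exon, with the mean of the 2 flanking introns as inclusion, skipping was 17.5, 16.8 and 23.1% in aggregates libraries, against 6.76, 7.46 and 6.55% in diffuse libraries. The difference of the means was 12.2 points, and the 2-sided exact permutation p was 0.1, the smallest that 3 against 3 libraries allow. The level of skipping reads themselves overlapped between the groups. They numbered 2.67, 2.44 and 3.58 per 1e6 intron counts in aggregates libraries, against 2.68, 3.24 and 2.49 in diffuse libraries (exact permutation p = 0.9). Reads that include the exon had 12.6, 12.0 and 11.9 per 1e6 in aggregates libraries, against 37.0, 40.2 and 35.5 in diffuse libraries, a ratio of means of 0.324. The 2 flanking introns averaged here were unequal in every library. The downstream one had 270, 291 and 200 reads in aggregates and 745, 752 and 689 in diffuse libraries. The upstream one had 467, 479 and 478 in aggregates and 1132, 1307 and 1222 in diffuse libraries. The skipping percentage therefore depends on the flank used. The exon is 124 bases long, which leaves a remainder of 1 after division by 3, so the transcript without it has another reading frame after that point.

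**Figure D4:**
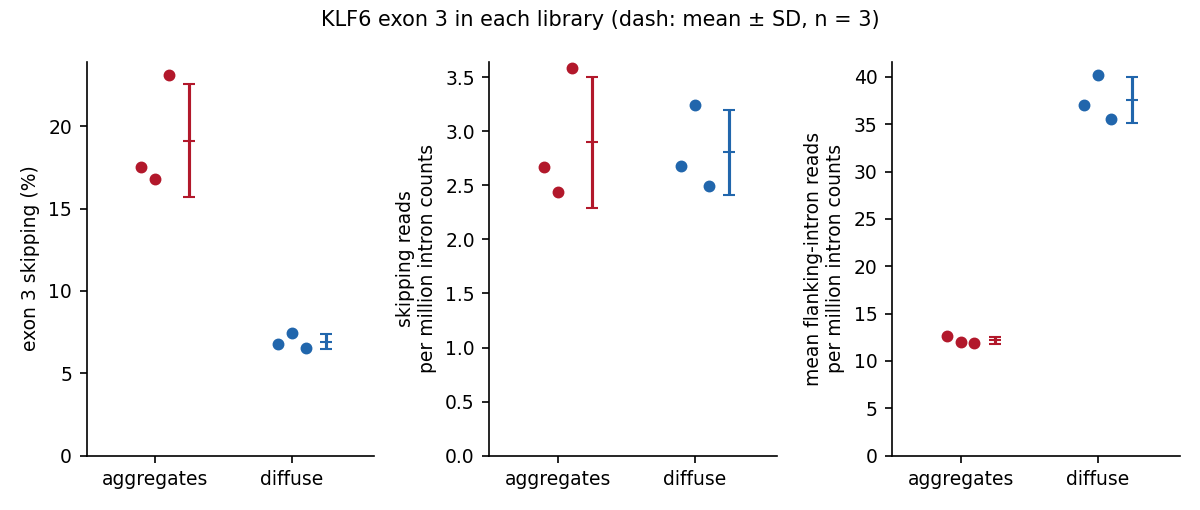
Exon 3 of KLF6 in each library, aggregates (red) left of diffuse (blue): exon skipping in %, skipping reads and mean flanking-intron reads, both per 1e6 intron counts; dashes with bars are mean ± SD of 3 libraries. Skipping averages 19.1% in aggregates against 6.92% in diffuse libraries, the skipping reads overlap, and the flanking reads average 12.2 in aggregates against 37.6 in diffuse libraries.

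The second KLF6 cluster (adjusted p = 0.14) and the clusters of KLF5, KLF7, KLF9, KLF10 and KLF11 (adjusted p of 0.571 or higher) did not pass the test, which does not show that their use was equal. In the second KLF6 cluster the main intron (3782215 to 3784912) took 93.3 ± 0.670% of reads in aggregates and 96.5 ± 0.706% in diffuse cells (SD, n = 3 each). Without diffuse replicate 2 this cluster passed, with an adjusted p of 0.0183, and over the other alternatives the adjusted p ran from 0.104 to 0.52. That of exon 3 ran from 9.59e-10 to 7.96e-06 over its alternatives. For KLF10, a shorter alternative intron (102652398 to 102653469) took 6.97 ± 3.66% in aggregates and 4.5 ± 1.71% in diffuse cells, which overlap. The KLF11 intron that holds the printed stretch took on average 86.1% of its cluster's reads in aggregates and 81.8% in diffuse cells. The other intron of that cluster, which starts at 10044452, took 13.9% in aggregates and 18.2% in diffuse cells. Spliced reads per 1e6 intron counts averaged 12.4 in aggregates and 26.3 in diffuse cells for KLF11, and 27.5 in aggregates and 35.8 in diffuse cells for KLF7.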

How the data were processed

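In total, 2 groups of 3 RNA libraries were compared. The authors deposited whole-number counts per gene and per LeafCutter intron, not normalized; the submitters' processing notes name STAR 2.7.11a, fastp 0.23.2 and hg38. Not given in the sources used here are the LeafCutter version and the gene counter with its strand setting and annotation. In R 4.3.3, edgeR 4.0.16 tested genes (filterByExpr, TMM, robust quasi-likelihood F test, Benjamini-Hochberg, threshold 0.05) and introns with diffSpliceDGE, for introns with at least 10 counts over 6 libraries and clusters with at least 2 introns and 10 counts in every library. Both steps were tested on simulated data. Levels are TMM-scaled CPM, per kilobase of GENCODE 29 exons where genes are compared. Replicates differed by more than sampling noise (chi-square per degree of freedom 2.44 to 5.84), and the series design calls them independent. The members and lists were chosen with earlier results of these data known. Named were TARDBP, the members, all other KLF and SP genes tested, and up to 4 changed genes per list with the largest log2 fold changes, an average of 5 CPM or more and groups that did not overlap. Some further genes outside this rule are named to show the other direction or no change. Alternatives were DESeq2 1.42.0, other scaling, other filters, a fold of 1.2, a replicate block, a GC and length correction, and leaving out each library.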

Additional observations from a re-analysis of the deposited data

How the results depend on the processing

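KLF2, KLF5, KLF6, KLF7, KLF9, KLF10, KLF11 and KLF13 stayed lower and past the threshold under all 13 alternatives, and KLF4 under 11 of the 12 that could test it: DESeq2 gave -1.17 with an adjusted p of 0.1, and a mean of at least 5 CPM left it out. With GC and length correction, the log2 fold change was -0.41 for KLF7, -0.50 for KLF13 and -1.17 for KLF6, nearer to no change. Under it KLF2 moved further away, to -1.31. The shifts of KLF7, KLF13, KLF6 and KLF2 exceed their SE. The count over all genes ran from 9202 to 14048, and from 12943 to 13310 with each library left out, and the member count from 8 to 9. Same-numbered libraries deviated together only weakly (correlations 0.036, 0.083 and 0.060), although each correlated best with its own number, and the replicate block gave 13530 changed genes and 9 changed members. With a mean of at least 5 CPM, only 3 other KLF genes remained to be tested and all 3 changed, and the median log2 fold change was -0.32 for SP genes and -0.19 for upstream regulators. Against a fold of 1.2, 2 cofactors changed. With GC and length correction the medians were -0.11 for other KLF genes, -0.09 for SP genes, 0.04 for cofactors and -0.15 for ubiquitin ligases, and SP4 passed at 0.19. With each library left out, the median ran from -0.07 to -0.01 for cofactors and from -0.15 to -0.04 for upstream regulators, and changed intron clusters from 1 to 2. Apart from the smaller number of genes tested under that filter, the cause of these shifts was not tested. Among introns that were not called, with each library left out, the change in use of 1 KLF11 intron ran from -0.391 to 0.24 points (positive without aggregates replicate 1), and of 1 KLF9 intron from -0.0206 to 0.835 points (negative without aggregates replicate 3). Depth limits KLF4 and the skipping reads of KLF6, which rest on few counts. KLF14 (21 to 31 counts) and KLF15 (12 to 16) in diffuse libraries, and KLF17 (23 to 35) in aggregates libraries, were low as well.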
